A study of Mus musculus with 9 samples.

Results

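Myotubes treated with siRNA against macroH2A1.2 (si mH2A1.2, 3 samples) were compared with control myotubes (si Ctrl, 3 samples), which are 6 of the 9 RNA samples in the series. All cells were C2C12, an immortal mouse myoblast line that stops dividing and fuses into multinucleated myotubes when serum is withdrawn, and all were collected at day 4 of differentiation. Cells received 10 nM siRNA in 3 rounds, the last of them 2 days into differentiation. The controls, Wild Type in the labels, carry here the study's name si Ctrl, its control being a scramble siRNA. The remaining 3 samples received siRNA against the other splice isoform, macroH2A1.1. They enter below through the filter on counts, the scaling of the libraries and the estimate of the spread between samples. Of 52780 genes in the deposited table, 19545 had enough counts over the 9 samples to be tested, and these are the genes described. A gene can pass this filter through the si mH2A1.1 samples alone. C2C12 is 1 cell line, so the replicates differ in culture and not in genotype.

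MacroH2A1 is a histone variant in which an H2A-like part is joined to a large globular macrodomain. Its gene, H2afy, makes macroH2A1.1 and macroH2A1.2 by using one or the other of a pair of mutually exclusive exons, and only the macrodomain of macroH2A1.1 binds ADP-ribose. Skeletal muscle shifts towards macroH2A1.1 as it differentiates. The siRNAs act on the exon that only 1 isoform carries. In the GENCODE M21 transcripts (GRCm38), both macroH2A1.2 siRNAs listed in the study's methods match exon 6 of 9 of H2afy-201, a coding exon of 100 bp at chr13:56089758-56089857 on the minus strand. In H2afy-202 the place of exon 6 is taken by a coding exon of 91 bp at chr13:56088252-56088342. Both exons are printed 5′ to 3′ because they are all that the knockdown can tell apart, with the bases matched by the macroH2A1.2 siRNAs (H2afy-201) and the macroH2A1.1 siRNAs (H2afy-202) in capitals.
H2afy-201 exon 6: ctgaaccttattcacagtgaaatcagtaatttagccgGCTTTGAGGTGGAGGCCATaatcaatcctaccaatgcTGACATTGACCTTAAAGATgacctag
H2afy-202 exon 6: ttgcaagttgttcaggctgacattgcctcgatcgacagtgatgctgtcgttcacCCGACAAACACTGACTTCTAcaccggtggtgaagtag

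The counts are given per gene and sum both isoforms, so they check the knockdown of macroH2A1.2 only in part. At the protein level the study reports, from immunoblotting, that the interference was specific to each isoform. H2afy (ENSMUSG00000015937) was at 56.3, 62.4 and 61.0 CPM (counts scaled to the TMM-adjusted library size) in the si Ctrl samples 1, 2 and 3. The si mH2A1.2 samples were at 46.8, 47.2 and 43.2 CPM. All 3 knockdown samples lay below all 3 controls, but the difference did not pass the test (log2 fold change -0.39 ± 0.11 SE, adjusted p = 0.108, edgeR's quasi-likelihood test with Benjamini-Hochberg adjustment over all genes tested). Without si mH2A1.1 replicate 1, which belongs to neither group, the value was -0.38 with an adjusted p of 0.0461. Leaving out any other single sample gave no pass (adjusted p from 0.106 to 0.245, edgeR). DESeq2 on all samples gave H2afy an adjusted p of 0.0406. H2afy2, which encodes macroH2A2, was low, at 4.85 ± 1.48 CPM in si Ctrl and 3.62 ± 0.39 in si mH2A1.2 (SD, n = 3), and was not called.

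A gene is named called when its adjusted p was 0.05 or less in that edgeR fit. Of the 19545 genes, 460 were called (2.35%), 268 of them higher (1.37%) and 192 lower (0.982%) in si mH2A1.2. The median log2 fold change was 1.03 among the called genes that rose and -0.87 among those that fell, and 137 rises and 76 falls were at least 2-fold. In a further fit, samples with the same replicate number in the labels were treated as pairs. With the replicate number as a block 1005 genes passed, 566 higher (2.9%) and 439 lower (2.25%), including 459 of the 460. Without regard to any test, all 3 knockdown samples lay above all 3 controls in 11.7% of genes and below them in 10.8%. The median log2 fold change of all tested genes was -0.0001.

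The number of calls depended on single samples. Without si Ctrl replicates 1, 2 and 3 the fit called 74, 267 and 99 genes. Without si mH2A1.2 replicates 1, 2 and 3 it called 91, 81 and 240, and without si mH2A1.1 replicate 3 it called 231. None of the 460 genes changed sign in any of these 9 leave-outs, and 50 stayed called in all of them. The 460 were called from these same samples, so their kept signs are no separate evidence on direction. Of the 73 called genes that the naming rule picked, 24, 52 and 27 kept their call without si Ctrl replicates 1, 2 and 3, 28, 24 and 50 without si mH2A1.2 replicates 1, 2 and 3, and 70, 64 and 49 without si mH2A1.1 replicates 1, 2 and 3. Totals of the 6 samples ran from 36924252 to 40289926 counts, so 3 counts correspond to at most 0.0826 CPM. Mitochondrial genes took 3.94% to 5.3% of counts, with overlap between the groups.

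**Figure D1:**
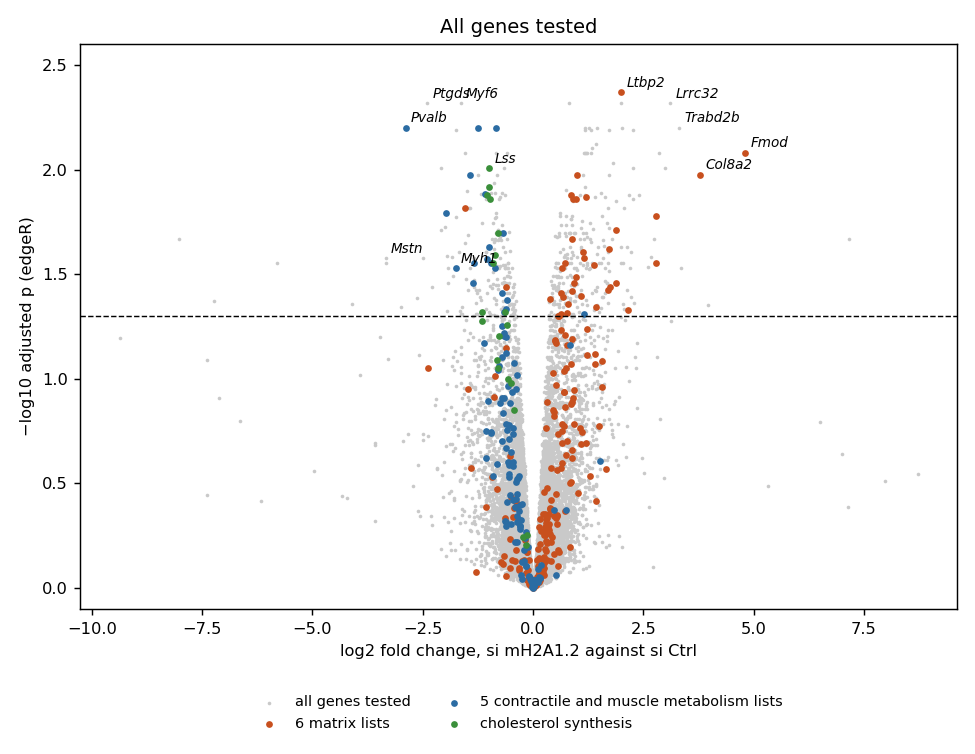
Log2 fold change (x, si mH2A1.2 against si Ctrl) against −log10 adjusted p (y) for the 19545 genes tested, with 212 matrix genes, 123 contractile and muscle metabolism genes and 20 cholesterol synthesis genes in colour and the dashed line at an adjusted p of 0.05. Of the coloured points above the line, 34 matrix genes lie on the right and 2 on the left, 18 contractile genes on the left and 1 on the right, and 9 cholesterol genes on the left.

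Most extracellular matrix genes had a higher value in the knockdown (164 of 212), though few passed the test. Over 6 lists that hold collagens, glycoproteins, proteoglycans, collagen-processing enzymes, matrix receptors and matrix proteases with their inhibitors, 34 of 212 tested genes rose, 2 fell, and the median log2 fold change was 0.39. All 3 knockdown samples exceeded all 3 controls in 85 of the 212 genes and lay below them in 11. Over all genes tested these shares were 11.7% and 10.8%, and 1.37% were called higher and 0.982% lower. The same shares stand beside the counts of every list below. With the replicate block 54 rose and 6 fell. Without si Ctrl replicates 1, 2 and 3 the calls were 5, 20 and 8 higher, without si mH2A1.2 replicates 1, 2 and 3 they were 6, 6 and 21, and without si mH2A1.1 replicate 3 they were 17. The 4 that stayed called in every leave-out were Col8a2, Igfbp7, Ltbp2 and Fmod. In bulk RNA, more cells of a type and more RNA per cell cannot be told apart, here or in the groups that follow.

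The largest rise of all named genes was in Fmod (ENSMUSG00000041559, chr1:134037254-134048277), which encodes fibromodulin, a small leucine-rich proteoglycan that binds collagen fibrils. It was at 1.74, 5.81 and 2.01 CPM in si Ctrl and at 162, 72.7 and 34.0 CPM in si mH2A1.2. The 3 knockdown samples differed widely from each other, yet the lowest was well above the highest control. The log2 fold change was 4.81 ± 0.62 (SE), with an adjusted p of 0.00832 by edgeR. It was 5.57 without si Ctrl replicate 2 and 4.06 without si mH2A1.2 replicate 1. Vcan, which encodes the large proteoglycan versican, went from 530, 583 and 618 CPM to 1589, 1167 and 1214, a log2 fold change of 1.2 ± 0.18 (adjusted p = 0.0135). These were the called members among 20 tested proteoglycans, whose median was 0.37.

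Among 37 tested collagen chains 3 rose and 1 fell, with a median log2 fold change of 0.47, and 14 had no overlap upwards against 2 downwards. Col8a2, a chain of the short network-forming collagen VIII, was at 0.562, 3.3 and 3.89 CPM in si Ctrl and at 49.1, 27.2 and 31.5 in si mH2A1.2. Its partner chain Col8a1 was at 85.9, 151 and 112 CPM against 386, 296 and 227. Both collagen VIII chains were therefore higher in every knockdown sample than in any control. The log2 fold changes were 3.79 ± 0.52 for Col8a2 (adjusted p = 0.0106, edgeR) and 1.38 ± 0.26 for Col8a1 (adjusted p = 0.0286). Col12a1, a fibril-associated collagen, rose from a mean of 437 ± 130 to 1182 ± 116 CPM (SD, n = 3), and Col20a1, another chain of that class, fell from 9.36 ± 2.63 to 3.21 ± 0.497 CPM. Col12a1 kept its call in 1 of the 9 leave-outs and Col20a1 in 6.

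Col1a1, the main chain of fibril-forming collagen I, was among the most abundant matrix transcripts. It was at 2108, 3332 and 3396 CPM in si Ctrl and at 9381, 7670 and 6435 CPM in si mH2A1.2. The groups did not overlap, but the spread between samples was wide and the adjusted p was 0.0762 (log2 fold change 1.41 ± 0.36, edgeR). It was 0.0426 with the replicate block and 0.023 without si mH2A1.1 replicate 1. In every other leave-out Col1a1 did not pass, with an adjusted p from 0.05065 to 0.236. DESeq2 gave Col1a1 an adjusted p of 0.00095. With the block 7 collagen chains were called higher and 1 lower.

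Fn1, which encodes fibronectin, the glycoprotein that integrins bind and that collagen assembles on, was more abundant still. Its level was 8269, 10550 and 8439 CPM in the controls and 19010, 17460 and 14330 CPM in the knockdown. The groups did not overlap and the log2 fold change was 0.90 ± 0.27, with an adjusted p of 0.124 (edgeR). The adjusted p was 0.0649 with the block and 0.0409 without si mH2A1.1 replicate 1. In every other leave-out Fn1 did not pass, with values from 0.0808 to 0.304. DESeq2 gave Fn1 an adjusted p of 0.00962. In Thbs1 (thrombospondin 1, which binds latent TGF-beta) the controls were at 883, 1060 and 893 CPM and the knockdown samples at 1919, 1895 and 1601. There the log2 fold change of 0.93 ± 0.19 passed the test (adjusted p = 0.0347).

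Matrix glycoproteins gave the most calls of any list. Of 50 tested members 12 rose and none fell by edgeR (2 were lower with DESeq2, 2 with the block, 2 at an unadjusted p under 0.05 and 0 with limma-voom), 24 lay above the controls in all 3 samples against 3 below, and the median was 0.64. Ltbp2, a latent TGF-beta binding protein of microfibrils, had the lowest adjusted p of any gene in the 6 matrix lists (0.00426). Its level was 15.9, 22.1 and 20.3 CPM in si Ctrl and 82.1, 70.7 and 79.3 in si mH2A1.2, and within each group the samples lay close together. Emilin1, an elastic fibre protein, went from 29.5 ± 5.71 to 57.7 ± 3.57 CPM, Igfbp7, a secreted protein that binds insulin-like growth factors, from 71.0 ± 11.3 to 142 ± 17.2, and Ccn4, a matricellular Wnt target, from 193 ± 9.01 to 361 ± 38.6. The other called members were Crispld2, Dpt, Ecm2, Efemp2, Ltbp3, Mfap5 and Smoc2, with log2 fold changes from 0.39 (Efemp2) to 2.15 (Crispld2, which stayed under 2 CPM).

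All 25 tested collagen-processing enzymes had a positive log2 fold change (median 0.39), and in 14 the groups did not overlap, but only 2 were called. They were the lysyl oxidase family members Loxl3 and Loxl1, which cross-link collagen and elastin. Loxl1 was at 117, 160 and 163 CPM in si Ctrl and at 228, 234 and 222 in si mH2A1.2. Its lowest knockdown sample was above its highest control, and its log2 fold change was 0.63 ± 0.14 (adjusted p = 0.0489, edgeR). With the replicate block 7 of the enzymes passed, all higher.

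**Figure D2:**
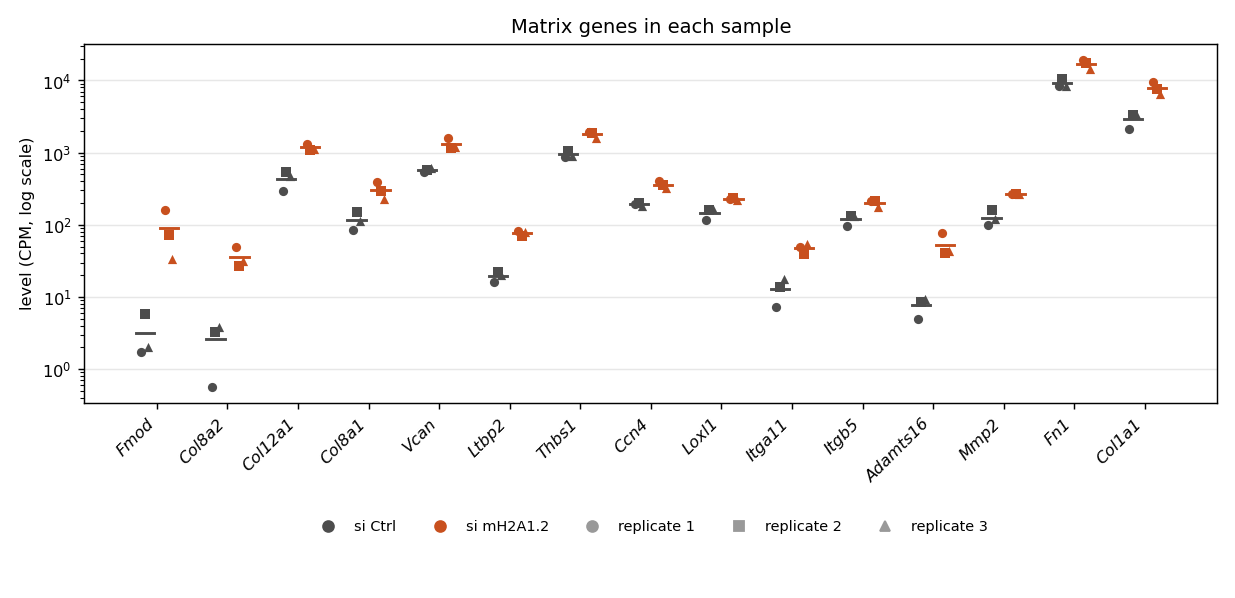
Level in each sample (y, CPM, log scale) of 15 matrix genes (x) in si Ctrl (grey) and si mH2A1.2 (orange), with the replicate number as the marker shape and the group mean as a bar. In every gene shown the 3 orange points lie above the 3 grey ones, and Fn1 and Col1a1 are shown although they did not pass edgeR's test.

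Receptors for the matrix moved in both directions. Among 38 tested integrins and other receptors 7 rose and 1 fell, and the median was only 0.08. Itga11, the alpha subunit of a collagen receptor of mesenchymal cells, was at 7.17, 13.5 and 17.6 CPM in si Ctrl and 48.8, 39.3 and 53.4 in si mH2A1.2 (log2 fold change 1.88 ± 0.38, adjusted p = 0.0347, edgeR). Its call was kept in 2 of the 9 leave-outs. Itgb5, with its partner Itgav a receptor for vitronectin, went from 121 ± 20.7 to 200 ± 18.8 CPM, and Itgav itself from 159 ± 19.2 to 254 ± 7.91. Itgb4, the partner of Itga6 in the laminin receptor of epithelia, rose from a low 1.87 ± 0.281 to 6.9 ± 3.04 CPM. Itga6, which also pairs with Itgb1 on myoblasts, fell from 276, 244 and 218 CPM to 168, 169 and 141. These subunits bind different ligands, and Itgb1, the partner of several alpha subunits, was at a log2 fold change of -0.01 (adjusted p = 0.988). Mrc2, an endocytic collagen receptor, Sdc1, a heparan sulfate proteoglycan of the membrane, and Itgbl1 were the remaining called rises.

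The laminins and other basement membrane genes gave no calls. Of 17 tested members none passed by edgeR or limma-voom, DESeq2 called 2 higher, 2 were higher at an unadjusted p under 0.05, and the median was -0.01, while Lamb1, a laminin chain, and Nid2, a nidogen, were higher with the replicate block (adjusted p = 0.0417 and 0.0279). Hspg2, which encodes perlecan, was at 2703, 2329 and 2462 CPM in the controls and at 3507, 2867 and 2604 in the knockdown, with overlap between the groups.

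In a list of 44 proteases and inhibitors 8 were called and all were higher (median 0.26, 17 without overlap upwards and none downwards). Adamts16 and Adamts17, secreted metalloproteases, had the largest log2 fold changes at 2.79 ± 0.44 and 2.79 ± 0.52. Adamts16 went from 4.98, 8.61 and 9.38 CPM to 76.0, 40.2 and 43.4. Mmp2, the gelatinase that cleaves denatured collagen, and Mmp14, the membrane protease that activates it, were both called. Mmp2 was at 98.6, 158 and 121 CPM against 264, 263 and 270, with a log2 fold change of 1.08 ± 0.23, and Mmp14 at 177, 227 and 192 against 355, 290 and 289, with 0.65 ± 0.12. The other called members were Adamts6, Mmp16, Mmp19 and Plat, the last with an adjusted p of 0.0483, or 0.0556 with the replicate block.

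The TGF-beta and BMP axis, the main inducer of matrix synthesis in many mesenchymal cells, held 6 rises and 1 fall among 48 tested genes (median 0.23). Lrrc32, which encodes the membrane anchor of latent TGF-beta, was at 0.268, 0.533 and 0.567 CPM in si Ctrl and at 3.74, 3.68 and 4.46 in si mH2A1.2, a log2 fold change of 3.11 ± 0.30 (adjusted p = 0.00481, edgeR). The receptor Tgfbr2 went from 136 ± 12.0 to 233 ± 30.5 CPM, and Fst, the secreted antagonist of activin and myostatin, from 55.3 ± 7.57 to 100 ± 14.5. The ligand Tgfb1 was at 41.4 ± 16.6 and 48.3 ± 14 CPM, which did not pass. Mstn, which encodes myostatin, the inhibitor of muscle growth that Fst binds, had 16, 18 and 21 counts in the controls and 1, 0 and 4 in the knockdown. Its fitted log2 fold change was -3.34 ± 0.61 (adjusted p = 0.0265), and -4.87 without si mH2A1.2 replicate 3. The lower group is near the level of 3 counts, so the size of this fall is poorly fixed.

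Genes of other mesenchymal cells were measured beside these rises. Of 5 fibroblast markers only Dpt was called, Lum, a proteoglycan, was at 12.7 to 19.1 CPM against 10.1 to 12.1 and below in all 3 samples, and Thy1 had a log2 fold change of -0.0041. Of the 5 markers 3 had a positive value and 2 a negative one, with a median log2 fold change of 0.53. At an unadjusted p under 0.05 (edgeR) 3 were higher and 0 lower. The summed level of the fibroblast list was 313 to 417 CPM in si Ctrl and 556 to 594 CPM in si mH2A1.2, with no overlap. Of 3 tested tenocyte markers only Fmod was called, while Scx, the defining tendon factor, was at 24.9, 29.3 and 35.1 CPM against 39.1, 30.1 and 32.7, with overlap, and Tnmd and Thbs4 did not reach the filter. That list summed to 26.8 to 37.6 CPM in si Ctrl and 67.2 to 201.2 in si mH2A1.2, a difference that lay nearly all in Fmod. Smooth-muscle genes gave 4 calls of 18 tested, all higher, with a median of 0.20, but 5 had a negative value, and 3 lay below all controls in every knockdown sample against 5 above. Of all genes tested 1.37% were called higher, 10.8% lay below all controls and 11.7% above. Cnn1 (calponin) went from 0.696, 1.52 and 1.68 CPM to 4.16, 5.32 and 8.67, and Tagln (transgelin) from 30.5, 60.5 and 68.9 to 143, 120 and 201.1. Acta2, the most abundant of them, overlapped at 1524 to 2601 and 2249 to 3017 CPM, and Myh11, the myosin that defines smooth muscle, was under 1 CPM in both groups on average.

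No marker of osteoblasts, adipocytes, chondrocytes, endothelium or leukocytes was called by edgeR, out of 3, 4, 1, 2 and 1 tested, and by DESeq2 and limma-voom none either. At an unadjusted p under 0.05 only adipocyte markers passed, 1 higher and 1 lower. With the replicate block Fabp4, a lipid carrier of adipocytes, was lower (adjusted p = 0.0163). Ibsp, Adipoq and Acan had no count in any of the 6 samples. Summed over each list, the levels overlapped between the groups for osteoblast (39.3 to 66.4 and 43.1 to 74.7 CPM), adipocyte (11.2 to 18.5 and 9.33 to 16.0), endothelial (0.83 to 1.41 and 0.833 to 1.2) and leukocyte markers (2.86 to 4.05 and 3.41 to 3.63). The chondrocyte sum, nearly all Sox9, was 42.7 to 48.3 and 39.6 to 43.8 CPM. The part of any marker in the matrix values was not tested.

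Most contractile genes had a lower value. In 5 lists for myosins, thin filaments, Z-discs and M-lines, excitation-contraction coupling and muscle metabolism, 18 of 123 tested genes fell, 1 rose, and the median log2 fold change was -0.45. All 3 knockdown samples lay below all 3 controls in 50 genes and above them in 3, and 105 of the 123 had a negative value. Of all genes tested 10.8% lay below all controls and 11.7% above, and 0.982% were called lower. The replicate block called 38 lower and 2 higher. Without si Ctrl replicates 1 and 3 the falls called were 6 and 7, without si mH2A1.2 replicates 1, 2 and 3 they were 6, 6 and 12, and without si mH2A1.1 replicate 3 they were 11. Mylk2, Actn2, Klhl40, Pvalb and Pgam2 stayed called in all 9 leave-outs.

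Of 17 tested sarcomeric myosin genes 3 fell, and the embryonic and perinatal chains were not among them. Myh1, the adult fast chain IIx, was at 611, 263 and 646 CPM in si Ctrl and 187, 99.9 and 163 in si mH2A1.2. Replicate 2 was the lowest sample of both groups, and the groups still did not overlap. For Myh1 the log2 fold change was -1.76 ± 0.34 (adjusted p = 0.0296, edgeR). Mylk2, the kinase of the skeletal regulatory light chain, went from 25.4, 25.1 and 33.6 CPM to 10.8, 14.3 and 14.3, and Mybpc2, the fast myosin binding protein C, from 6.85 ± 1.92 to 2.67 ± 0.799. Myh3, the embryonic chain that marks new myotubes, overlapped between the groups at 5214 to 8065 and 4947 to 5687 CPM (log2 fold change -0.32 ± 0.18, adjusted p = 0.427). Myh8, the perinatal chain, was at 305.6 and 305 CPM on average. Myl1 and Myh4, a light chain and a fast heavy chain, were not called, but passed with the replicate block at adjusted p of 0.026 and 0.0332 and with DESeq2 at 0.0207 and 0.0154.

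Thin filament genes had the lowest median of the 5 lists, -0.58, with 4 of 20 members called, all lower, 8 with the block, and 19 with a negative value. Tnnt3, the fast skeletal troponin T that ties troponin to tropomyosin, was at 949, 972 and 1290 CPM in si Ctrl and 479, 504 and 672 in si mH2A1.2. The highest knockdown sample was below the lowest control (log2 fold change -0.96 ± 0.18, adjusted p = 0.028, edgeR). Tnni3, the cardiac troponin I, fell from 2.43 ± 0.878 to 0.615 ± 0.153 CPM, Nrap, an actin-anchoring protein of assembling myofibrils, from 104 ± 23.0 to 50.2 ± 12.3, and Lmod2, which elongates thin filaments, from 123 ± 25.3 to 67.8 ± 3.82. Acta1, the skeletal actin itself, was at 2741, 3644 and 4479 CPM against 2748, 3673 and 5000. It was the 1 member of the list with a positive value, at 0.07 ± 0.23.

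At the Z-disc and M-line 5 of 34 genes fell by the test, 13 with the block, and none rose in either fit. Actn2, the alpha-actinin that cross-links actin at the Z-disc, was at 192, 170 and 179 CPM and fell to 81.4, 72.9 and 72.3 (log2 fold change -1.25 ± 0.14, adjusted p = 0.00631, edgeR). Klhl40, which stabilises nebulin and Lmod3, was at 51.7, 53.0 and 52.2 CPM against 30.2, 28.5 and 28.9. Both genes were tight within each group and far apart between them. Des, the muscle intermediate filament desmin, went from 1349, 1143 and 1166 CPM to 879, 774 and 728. Hspb7, a small heat shock protein of muscle, and Myom3, an M-line protein, also fell, by 1.33 and 0.67 on the log2 scale.

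Excitation-contraction coupling had 4 falls and 1 rise among 27 genes, with a median of -0.43, and 9 falls and 2 rises with the block. Pvalb (parvalbumin, the calcium buffer of fast fibres) had the largest fall of the named genes at or above 1 CPM on average. It was at 3.48, 1.62 and 3.66 CPM in si Ctrl and 0.33, 0.47 and 0.376 in si mH2A1.2, a log2 fold change of -2.89 ± 0.33 (adjusted p = 0.00631, edgeR). Cacnb1, the beta subunit of the voltage sensor, fell from 155 ± 22.9 to 96.9 ± 5.89 CPM, and the junctophilins Jph1 and Jph2, which hold the junction of T-tubule and sarcoplasmic reticulum together, by 0.69 and 0.59 on the log2 scale. The calls of Cacnb1, Jph1 and Jph2 were kept in 5, 2 and 1 of the 9 leave-outs. Among 26 genes of muscle metabolism 2 fell, 4 with the block. They were Pgam2, the muscle phosphoglycerate mutase, from 38.8, 48.1 and 57.0 CPM to 14.2, 16.5 and 22.8, and Cox8b, a muscle subunit of cytochrome c oxidase, by 1.01 on the log2 scale. Ckm, the muscle creatine kinase, was at 341 ± 80.3 and 210 ± 42.2 CPM with an adjusted p of 0.0786 by edgeR, 0.0132 with the block and 0.00685 by DESeq2.

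**Figure D3:**
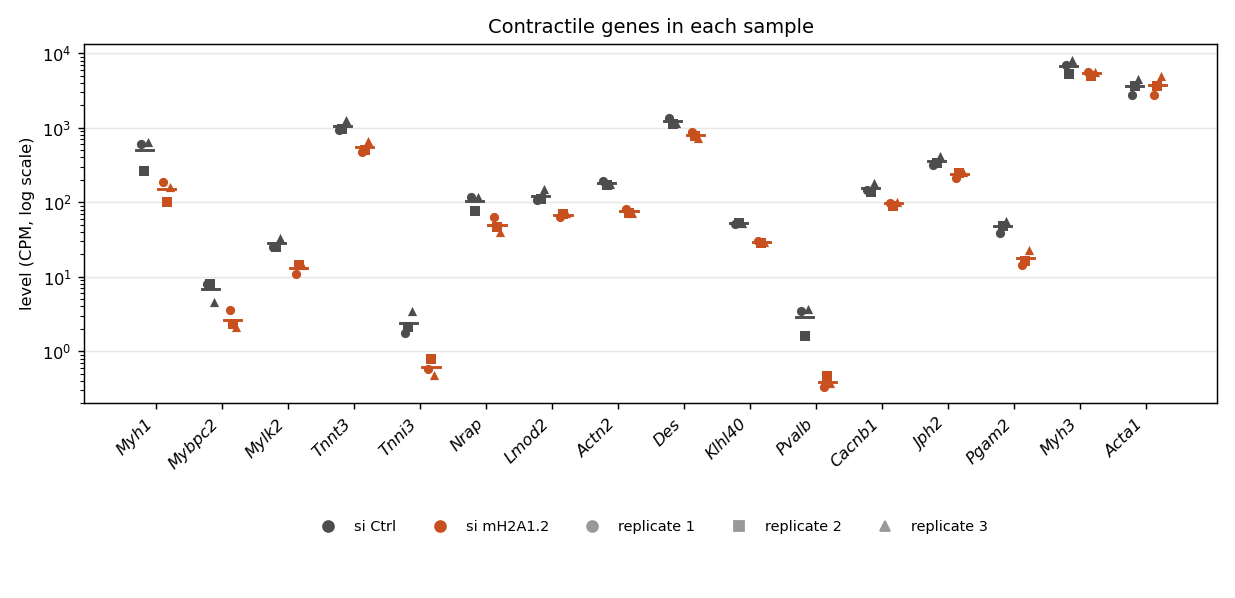
Level in each sample (y, CPM, log scale) of 16 contractile genes (x) in si Ctrl (grey) and si mH2A1.2 (orange), with the replicate number as the marker shape and the group mean as a bar. The 14 genes from Myh1 to Pgam2 have all orange points below all grey ones, while Myh3 and Acta1 overlap.

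Fewer regulators of muscle identity passed. Of 28 tested myogenic factors 2 fell and the median was -0.06. Myf6 (MRF4), the late member of the MyoD family, was at 4.26, 3.46 and 3.35 CPM in si Ctrl and 1.27, 1.17 and 1.1 in si mH2A1.2, which did not come near each other (log2 fold change -1.64 ± 0.17, adjusted p = 0.00481, edgeR). Myf5, the early member, fell from 46.3 ± 6.47 to 25.9 ± 6.45 CPM, with a call that was lost in every one of the 9 leave-outs at an adjusted p of up to 0.149. Myod1 was at 78.5 ± 15.3 and 67.0 ± 11.1 CPM and Myog at 666 ± 69.0 and 579 ± 31.1, and neither passed. Of 14 acetylcholine receptor and postsynaptic genes only Chrnd, a receptor subunit, was called, from 328 ± 66.8 to 204 ± 22.5 CPM, and it kept its call in 1 of the 9 leave-outs.

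Among 38 tested genes of cell fusion, the step that makes the tubes multinucleated, only Cdh11, a mesenchymal cadherin, was called, and with the block also Kirrel, an adhesion protein (adjusted p = 0.0266). Cdh11 was at 18.7, 24.4 and 29.3 CPM in si Ctrl and 87.5, 70.6 and 80.0 in si mH2A1.2 (log2 fold change 1.72 ± 0.24, adjusted p = 0.0106, edgeR). The muscle fusogens Mymk (myomaker) and Mymx (myomixer) had log2 fold changes of 0.09 ± 0.15 and -0.08 ± 0.18. The median of the list was 0.07.

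The 6 myotube markers check the labelled cell type. Myh3, Ckm, Acta1, Tnnt3, Ttn and Myog were abundant in all 6 samples, summing to 16770 to 25450 CPM in si Ctrl and 14470 to 18680 in si mH2A1.2. The sums overlapped, and 1 of the 6, Tnnt3, was called. Of 5 markers of undifferentiated myoblasts Myf5 was called, lower, and the sums were 300 to 452 and 308 to 443 CPM.

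Genes of cholesterol synthesis had the lowest median of the lists described. Cells make cholesterol from acetyl-CoA through mevalonate, squalene and lanosterol, and the enzyme genes are switched on together by the transcription factor SREBP-2 when sterol is scarce. All 20 tested enzymes had a negative log2 fold change (median -0.80), 9 fell by the test, and in 18 every knockdown sample lay below every control. With the replicate block 12 fell, and with DESeq2 16 did. Without si Ctrl replicates 1, 2 and 3 the falls called were 3, 5 and 4, and without si mH2A1.2 replicates 1 and 2 they were 3 and 2. Lss and Dhcr7 stayed called in all 9 leave-outs.

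At the start of the pathway Hmgcs1, the synthase that makes HMG-CoA, was at 350, 346 and 414 CPM in si Ctrl and at 147, 193 and 220 in si mH2A1.2. The log2 fold change of Hmgcs1 was -0.99 ± 0.15 (adjusted p = 0.0138, edgeR). Its highest knockdown sample was well below its lowest control. Of the mevalonate kinases and the decarboxylase, Pmvk and Mvd fell, by 0.86 and 1.16 on the log2 scale, and Mvd lost its call in each of the 9 leave-outs.

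In the middle steps Fdps, which makes farnesyl pyrophosphate, went from 255 ± 19.3 to 135 ± 22.9 CPM, and Fdft1, the squalene synthase that commits it to sterols, from 172, 164 and 175 to 74.4, 85.6 and 89.7. Lss, which closes squalene epoxide to lanosterol, was at 98.9, 87.6 and 105 CPM against 40.2, 48.7 and 57.5, with the lowest adjusted p of the pathway (0.00986, edgeR). Among the late enzymes Msmo1, a sterol methyl oxidase, fell by 0.80 and Dhcr7, the last reductase to cholesterol, by 1.00 on the log2 scale. Sqle, Acat2 and Tm7sf2 did not pass by edgeR without the block but did with it and with DESeq2. Cyp51, which demethylates lanosterol, was at 133, 133 and 141 CPM against 126, 117 and 125, and with Ebp and Hsd17b7 it had the values nearest 0, from -0.15 to -0.24.

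**Figure D4:**
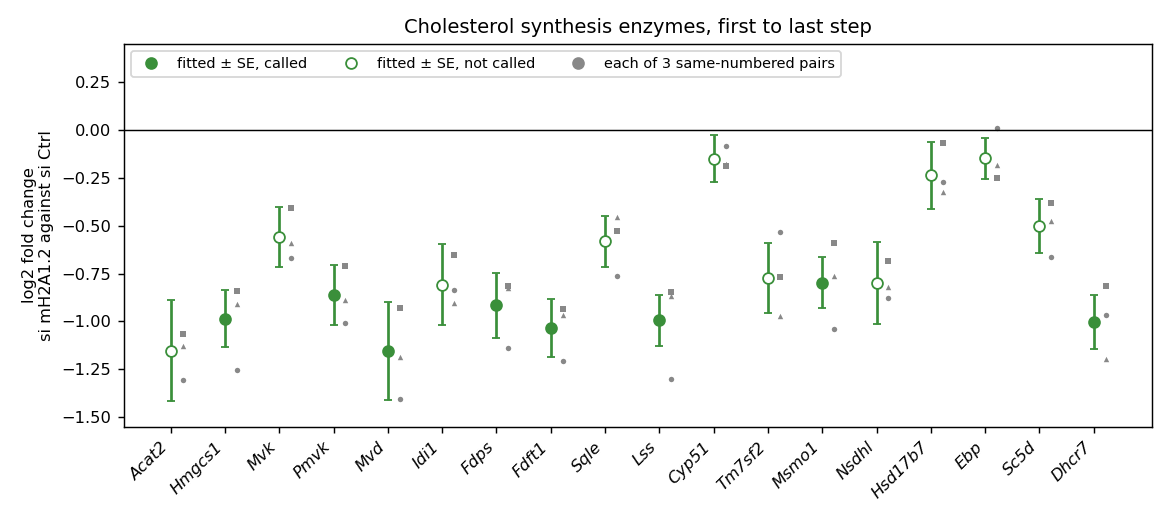
Log2 fold change (y, si mH2A1.2 against si Ctrl, green, error bars SE) of 18 of the 20 cholesterol synthesis enzymes (x, in order of the pathway), filled where called, with the 3 same-numbered sample pairs in grey. All 18 fitted values are below 0, from -1.16 in Mvd to -0.15 in Ebp, and 8 are filled.

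Uptake and control of sterols were mixed. Of 24 tested genes only Stard4, a sterol carrier, was called, from 69.6 ± 3.35 to 39.8 ± 9.67 CPM, and the median was -0.08. Srebf2, the gene of SREBP-2, was at -0.23 ± 0.11 and was not called. Abca1, which exports cholesterol and is switched on by oxysterols, was at 2.65 ± 0.3 and 5.34 ± 1.2 CPM, in the opposite direction to the enzymes, and was not called by edgeR (adjusted p = 0.0961), but passed with the block (0.0365) and with DESeq2 (0.0129). In fatty acid synthesis 2 of 18 genes fell, 6 with the block, with a median of -0.22. They were Acss2 and Aacs, which make acetyl-CoA and acetoacetyl-CoA in the cytosol. Acss2 was at 46.7, 44.0 and 56 CPM against 23.7, 27.9 and 28.1 (log2 fold change -0.88 ± 0.12, adjusted p = 0.0116, edgeR).

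The promoter of Hmgcs1 is shown because it holds each of the letters searched for in sterol-regulated genes. It is the RefSeq window from 250 bases before to 50 after the start (GRCm38.p6, chr13:119690101-119690400, plus strand), in lower case with these letters on either strand in capitals: TCACCCCAC, a core of the sterol regulatory element, CCAAT, the box bound by NF-Y, and GGGCGG, the box bound by Sp1.
Hmgcs1 promoter: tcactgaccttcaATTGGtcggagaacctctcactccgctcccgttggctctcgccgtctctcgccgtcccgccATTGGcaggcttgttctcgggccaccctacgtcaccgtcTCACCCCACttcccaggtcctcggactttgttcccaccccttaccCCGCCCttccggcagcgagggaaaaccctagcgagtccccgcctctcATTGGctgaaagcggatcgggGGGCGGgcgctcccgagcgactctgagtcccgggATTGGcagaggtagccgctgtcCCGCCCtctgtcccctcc
Of the 20 enzymes 15 had a promoter in the table, and Fdft1, Fdps and Sqle were among the 5 that had none. CCAAT occurred in 14 of the 15 (93.3%) against 41.1% of 27025 genes with a promoter, GGGCGG in 14 of 15 against 38.2%, and TCACCCCAC in Hmgcs1 alone (6.67%) against 0.614%. The 27025 were all genes with a promoter, whether or not they were tested here. Of the 34 matrix genes that rose only 19 had a promoter there, and of the 18 contractile genes that fell 15 did. Col12a1, Loxl1, Mmp2 and Thbs1 were among the matrix genes without a promoter. GGGCGG also occurred in 12 of those 19 matrix genes (63.2%) and in 6 of those 15 contractile genes (40%). CCAAT occurred in 8 of those 19 (42.1%) and 3 of those 15 (20%). The E-box CAGCTG, bound by the MyoD family, occurred in 7 of 15 contractile genes that fell and had a promoter (46.7%) against 18.3% of all genes, and in 4 of 19 matrix genes that rose. The share among contractile genes that were not called was not taken. These shares describe the letters in the window and not binding.

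Of 81 tested subunits of oxidative phosphorylation 79 had a negative log2 fold change, with a median of -0.25, and 23 had no overlap downwards, but only Cox8b and Ndufs6 were called. Of all genes tested 10.8% had no overlap downwards and 0.982% were called lower. Ndufs6, a complex I subunit, went from 28.2, 29.3 and 33.4 CPM to 17.1, 20.9 and 22.3 (log2 fold change -0.59 ± 0.12, adjusted p = 0.039, edgeR).

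**Figure D5:**
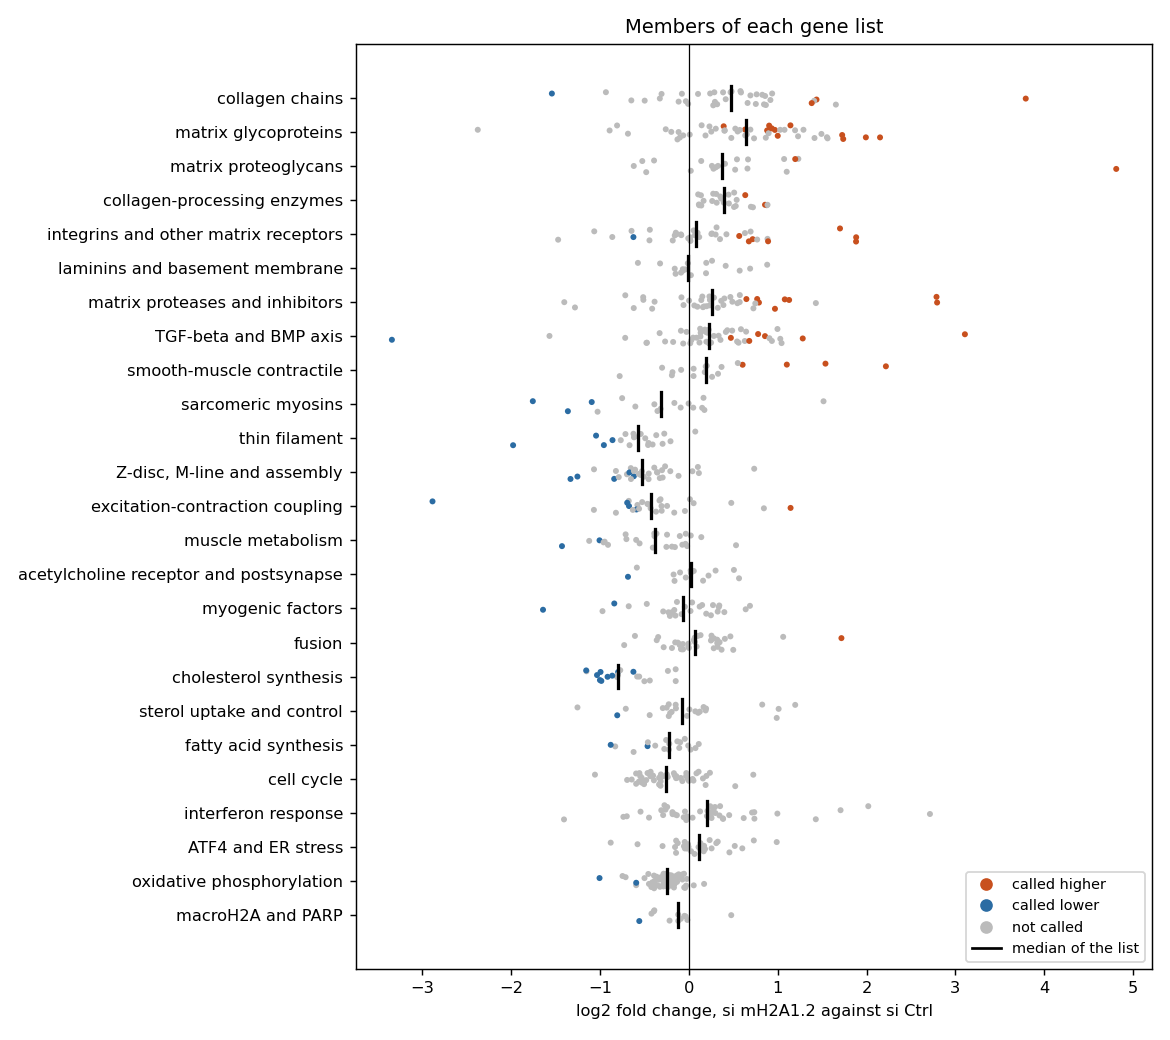
Log2 fold change (x, si mH2A1.2 against si Ctrl) of the tested members of 25 gene lists (y), orange where called higher, blue where called lower and grey where not called, with the list median as a bar. The medians run from 0.64 for matrix glycoproteins to -0.80 for cholesterol synthesis.

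Outside these pathways the largest changes were found in genes of varied function. Among the 10 largest rises, clone names (Gm or Rik symbols) left out, were Trabd2b, a membrane protease that inactivates Wnt ligands, at 2.36, 2.5 and 2.24 CPM against 38.7, 18.4 and 13.3, and Stra6, the receptor for retinol binding protein, at 0.321, 1.15 and 1.57 against 6.96, 8.69 and 8.65. Insc, an adaptor of spindle orientation, was at 1.45 ± 0.884 and 10.5 ± 1.45 CPM, and Tspan8, a tetraspanin, at 2.33 ± 0.632 and 15.6 ± 9.34. Ltc4s, leukotriene C4 synthase, had a log2 change of 2.6 ± 0.49, and 3.18 without si Ctrl replicate 2. Its call was lost without si Ctrl replicates 1 and 3 and si mH2A1.2 replicates 1 and 2, at adjusted p from 0.0672 to 0.11 (edgeR).

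Among the 10 largest falls, chosen in the same way, were Ptgds, the lipocalin-type prostaglandin D synthase, at 7.17, 4.88 and 5.36 CPM against 1.21, 0.809 and 1.29, and Tm6sf1, a lysosomal membrane protein, at 43.1, 39.2 and 68.5 against 8.56, 9.91 and 17.2. The log2 fold changes were -2.39 ± 0.24 and -2.08 ± 0.28. Gjd2, the gap junction protein connexin 36, went from 4.34 ± 2.49 to 0.764 ± 0.328 CPM. The rest of the 10, besides Pvalb, Tnni3 and Myh1, were Krt13, a keratin, Dnaaf3, a factor of dynein arm assembly, Hrnr and Ect2l, all under 4 CPM in every sample. Tmem171, a transmembrane protein that the study singled out, was at 2.33, 4.18 and 4.36 CPM against 9.0, 9.94 and 8.06 (log2 fold change 1.31 ± 0.23, adjusted p = 0.0221, edgeR).

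In the list of macroH2A and PARP genes 1 of 12 tested was called. H2afv, which encodes the H2A.Z isoform H2A.Z.2, fell from 35.6, 36.2 and 35.5 CPM to 24.2, 26.7 and 22 (log2 fold change -0.56 ± 0.11, adjusted p = 0.0296, edgeR). Parp1, the ADP-ribosylating enzyme that macroH2A1.1 binds, was at 91.7 ± 8.71 and 78.8 ± 4.86 CPM and was not called.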

How the data were processed

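RNA of 9 C2C12 samples was sequenced as single reads of 50 bp after selection of polyA. The authors quantified the reads with Salmon on GRCm38 (mm10 in the submitters' notes) and deposited the expected counts per gene as whole numbers, without normalization. A second deposited table, of the same counts after normalization, was not used. GENCODE M21 matched 52762 of 52780 genes, and whether counting used strand is not given in the sources used here. Library totals are given in the report, and floors cover counting error only.

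Differential expression was tested with edgeR 4.0.16 (R 4.3.3, legacy quasi-likelihood form, TMM, filterByExpr) on all 9 samples, and the contrast si mH2A1.2 against si Ctrl was adjusted by Benjamini-Hochberg. The test returns no SE, so the SE given is the absolute log2 fold change divided by the square root of the F statistic. Alternatives were DESeq2 1.42.0, its size factors, limma-voom (limma 3.58.1), the newer form of the test, 2 other filters, a replicate block, 6 samples only, other call rules and 9 leave-outs. The fits were tested on simulated data. Deviations from the group means correlated at 0.366, 0.325 and 0.23 between samples of the same replicate number and between -0.29 and 0.039 across numbers. With 3 samples per group there are few ways to match them, so these values do not establish that same-numbered samples are pairs. The labels give the replicate numbers, and the sample descriptions hold library names that are numbered in sequence within each replicate number. The study's methods name no pairing, and the main fit uses neither. The study calls the replicates independent. An exact permutation test of 3 against 3 cannot go below 0.1 and was not run.

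The members and the 35 gene lists were chosen with earlier results of these data known, so list counts carry no test. Named genes were H2afy and 6 genes the study names, the 10 largest called rises and falls of at least 1 CPM on average and with no clone name as symbol (Gm or Rik), with the same sign in all 3 pairs, and in each list up to 4 called members, or, with none called, the most abundant and the most changed. Values of some list members are not reported here. Further members named in the report were chosen after their values were seen.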

Additional observations from a re-analysis of the deposited data

How the results depend on the processing

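Among the alternatives, DESeq2 called 1096 genes (610 higher, 486 lower), and an unadjusted p below 0.05 gave 3109 (1598 and 1511). DESeq2 called 59 matrix genes higher, 38 contractile and 16 cholesterol genes lower. With no filter on low counts 408 genes were called higher, 53 of them matrix genes, and 29 contractile and 14 cholesterol genes were called lower. With only the 6 compared samples 112 were called lower, 11 of them contractile genes. An adjusted p below 0.01 and a log2 fold of 0.8 or more in either direction left 35 (25 higher and 10 lower). The leave-outs gave 74 to 544 genes in all, 44 to 331 higher and 29 to 213 lower. The replicate block gave 1005 (566 higher, 439 lower), and every one of the 73 called named genes passed with it, while the fit of the 6 compared samples kept 52 of them and lost 21. Besides the genes named in the report, the block added Cdkn1c and Fabp4 among the named genes and ended the call of Plat, a protease activator of plasminogen (adjusted p = 0.0556). The cause of these differences was not tested, except that leave-outs hold fewer samples.

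Of the 73 called named genes 20 stayed called in all 9 leave-outs and none changed sign. Sign changes occurred in 3 genes that were not called, with leave-out ranges of -0.143 to 0.125 for Hsp90b1, -6.06 to 0.54 for Bglap and -0.084 to 0.185 for Cd68. Of 455 list medians under the alternatives, 59 moved by more than the spread between sample pairs, and 8 of 35 lists changed the sign of their median in a leave-out, all with a main median between -0.15 and 0.21. Outside the leave-outs, the moved medians were 0.346 for matrix proteases, 0.192 for tenocyte and 1.54 for smooth-muscle markers with at least 10 counts in every sample, and 0.02 for myogenic factors, -0.17 for fatty acid synthesis, -0.07 for chondrocyte and 0.594 for leukocyte markers with no filter. Leave-out medians ran from 0.536 to 0.741 for matrix glycoproteins, -0.689 to -0.415 for thin filaments, -0.4 to -0.0613 for sarcomeric myosins and -0.894 to -0.686 for cholesterol synthesis. The folds of genes near 3 counts, such as Mstn, are poorly fixed, and gene counts cannot tell the macroH2A1 isoforms apart.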

Other observations

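Several abundant called genes outside the lists, picked after their values were seen, encode receptors and secreted proteins. Pdgfrb, the receptor of mesenchymal growth factor PDGF-B, went from a mean of 141 CPM in si Ctrl to 357 in si mH2A1.2 (log2 fold change 1.34, adjusted p = 0.028 by edgeR), and Angpt1, an angiopoietin, from 36.5 to 120 (1.72, 0.00645). Cilp, a cartilage matrix protein, went from 24.9 to 121 CPM (2.28), Dpysl3, a cytoskeletal protein of migrating cells, from 248 to 614 (1.30), and Pmepa1, an inhibitor of TGF-beta signalling, from 111 to 236 (1.08). Among the falls were Gatm, which makes the creatine precursor, from 254 to 148 CPM (-0.78), Sgcb, a sarcoglycan of the muscle membrane, from 203 to 136 (-0.58), and Pcyt2, of phosphatidylethanolamine synthesis, from 110 to 65.5 (-0.75).

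Of 49 cell cycle, 43 interferon response and 32 ATF4 and ER stress genes none was called by edgeR or limma-voom, DESeq2 called 1 interferon gene lower, and 6, 5 and 1 had an unadjusted p under 0.05. Of the same lists 2, 0 and 0 genes were called with the replicate block, with medians of -0.26, 0.21 and 0.12. Cdkn1a, the p21 inhibitor of the cell cycle, was at 488, 574 and 747 CPM in si Ctrl and 741, 758 and 1099 in si mH2A1.2, and Cdkn1c (p57) at 7.25, 7.81 and 4.0 against 4.68, 2.95 and 1.53, both with overlap. B2m, a subunit of MHC class I, was at 240 ± 8.52 and 236 ± 6.57 CPM. Oas1g had 2 counts in 1 si mH2A1.2 sample and none in the other samples compared. It passed the filter only through the si mH2A1.1 samples. The 43 interferon genes thus include at least 1 with too few counts here to be called. Vldlr, a lipoprotein receptor that ATF4 can induce, was at 11.6 ± 5.67 and 23.0 ± 12.8 CPM, with overlap.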
